A study of Mus musculus with 8 samples.

Results

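The genes of oxidative phosphorylation were compared between fibroblasts of the mouse colon that lack and fibroblasts that carry CD90 on their surface. A gene was taken when a row of the expression table named it alone and its symbol was that of a subunit of the respiratory complexes or ATP synthase, or began with mt-, the prefix of genes of the mitochondrial genome. This gave 93 of the 30142 genes named on the array. They comprised 34 subunits of complex I, 8 genes named as complex I assembly factors, the 4 subunits of complex II, 8 subunits of complex III, 18 genes of complex IV and 17 of complex V (ATP synthase). A further 2 were pseudogenes of ATP synthase subunits and 2 were RNAs of the mitochondrial genome. The choice used symbols alone and no measured value.

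Both populations came from wild-type C57BL/6J mice, 4 animals in all, whose age is not stated in the labels. Cells that lacked Epcam, CD45 and CD31 and carried gp38 were sorted from colon into CD90- and CD90+ fractions, and RNA of each sample was hybridised to 1 Affymetrix mouse transcriptome array. Each fraction had 4 samples. The CD90- samples are numbered 13, 15, 17 and 19 and the CD90+ samples 14, 16, 18 and 20, as in their titles, and values per sample follow that order. The labels name no genetic change or treatment in either fraction, and since no label links a sample to its animal, p-values reflect only how these samples vary, which may in part be technical.

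Oxidative phosphorylation passes electrons from NADH through complex I, and from succinate through complex II, to coenzyme Q, then through complex III to cytochrome c and through complex IV to oxygen. Complexes I, III and IV pump protons across the inner mitochondrial membrane, and ATP synthase uses their return to make ATP. Complexes I, III, IV and V combine subunits coded in the nucleus with subunits coded in mitochondrial DNA, while all subunits of complex II are coded in the nucleus. Core subunits carry the redox centres or catalytic sites, and accessory subunits support assembly, stability or regulation. In the colon these genes are best known from the epithelium, whose colonocytes burn butyrate, and fibroblasts use both mitochondrial and glycolytic ATP.

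Of the nuclear transcription factors known to act on these genes, NRF1 and the GABP complex bind near the start sites of many of them. The sequences before the start were therefore read from RefSeq (assembly GRCm38.p6), which held a window of 300 bases, 250 before to 50 after the start, for 74 of the 93 genes and for 67 subunits of complexes I to V. On either strand, the NRF1 motif (GCGC, any base, then TGCGC) was found in 14 of these 67 windows (20.9%), against 4.78% of the 27025 genes with a window and 6.6% of the 17491 protein-coding ones. The GABP motif CCGGAAG was found in 16 (23.9%, against 9.12% and 11.9%) and the YY1 motif AAGATGGC in 9 (13.4%, against 2.88% and 3.22%). The motif TCAAGGTCA, bound by the estrogen-related receptors, was found in 2 (2.99%, against 0.407% and 0.332%). The Sp1 motif GGGCGG was found in 28 (41.8%, against 35.9% and 46.3%), and CCAAT also in 28 (41.8%, against 37.9% and 39%). Overlapping matches of different motifs were each counted, and a match describes letters, not a bound site or a cause. Stretches of 250 bases before the start are printed for Cox7c of complex IV, which rose, for Ndufs8 of complex I and Atp5g2 of ATP synthase, which fell, and for Sdhd of complex II, which was not called and whose window holds the NRF1, GABP, Sp1 and estrogen-related receptor motifs. Each reads 5′ to 3′ toward the gene, and capitals mark motif matches that lie wholly before the start.
Cox7c, chr13:86046796-86047045, minus strand: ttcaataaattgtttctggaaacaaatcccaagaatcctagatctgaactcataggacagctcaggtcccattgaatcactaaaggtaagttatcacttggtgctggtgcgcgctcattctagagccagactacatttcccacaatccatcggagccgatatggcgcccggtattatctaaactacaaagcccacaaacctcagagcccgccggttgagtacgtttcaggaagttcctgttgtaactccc
Ndufs8, chr19:3912775-3913024, minus strand: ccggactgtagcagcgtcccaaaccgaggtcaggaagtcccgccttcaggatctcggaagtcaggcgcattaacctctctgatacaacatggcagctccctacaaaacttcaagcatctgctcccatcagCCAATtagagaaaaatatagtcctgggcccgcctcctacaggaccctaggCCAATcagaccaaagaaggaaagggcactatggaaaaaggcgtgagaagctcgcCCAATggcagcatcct
Atp5g2, chr15:102671048-102671297, minus strand: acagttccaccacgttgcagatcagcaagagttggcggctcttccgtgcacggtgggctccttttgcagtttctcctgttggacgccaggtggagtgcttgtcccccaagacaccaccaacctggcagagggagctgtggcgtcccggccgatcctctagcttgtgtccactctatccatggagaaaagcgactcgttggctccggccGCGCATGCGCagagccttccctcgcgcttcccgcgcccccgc
Sdhd, chr9:50603850-50604099, minus strand: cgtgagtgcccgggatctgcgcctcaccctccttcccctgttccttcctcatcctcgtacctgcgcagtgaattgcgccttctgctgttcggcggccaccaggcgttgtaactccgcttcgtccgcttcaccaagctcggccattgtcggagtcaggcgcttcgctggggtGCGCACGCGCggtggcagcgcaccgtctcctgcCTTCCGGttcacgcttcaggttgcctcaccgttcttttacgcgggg
The Atp5g2 stretch holds the NRF1 motif with its first base at -42, counted from the start site, and the Sdhd stretch holds it at -79 with a GABP match at -46, while the Cox7c stretch holds none of the 6 motifs. In Ndufs8 the capitals mark CCAAT matches, at -120, -70 and -16, and a GABP match lay after the start, at 16. Of the 67 subunits with a window 9 (13.4%) were called in the comparison below. Called subunits were 2 of the 14 with the NRF1 motif (Atp5g2 and Ndufs5), 1 of the 16 with the GABP motif (Ndufs8), 0 of the 9 with the YY1 motif, 0 of the 2 with the estrogen-related receptor motif, 5 of the 28 with the Sp1 motif and 3 of the 28 with CCAAT.

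The sort was visible in the arrays. Thy1, the gene of CD90, was at 5.52 ± 0.046 (log2, SD, n = 4) in CD90- and 7.69 ± 0.47 (n = 4) in CD90+ samples without overlap (two-sided exact permutation test over 70 assignments, p = 0.0286, the smallest this design allows; limma adjusted p = 8.02e-05). Of 7 tested fibroblast genes, all bright in both populations, Dcn, Lum and Vim (3) were higher and Col1a2 (1) was lower in CD90+, so the list had no common direction. Its summed level, to which Dcn at means of 17.95 and 18.70 gives most, ran from 18.62 to 18.99 in CD90- and from 19.31 to 19.44 in CD90+ samples. Some genes of other cells moved with the sort: of 7 tested enteric glia markers 6 were higher and 0 lower in CD90+, with summed levels of 8.64 to 9.52 and 10.10 to 12.19. Of 3 tested neuron markers 3 were higher, with 7.54 to 7.87 and 10.72 to 11.72. This rise came mostly from Stmn2, at means of 6.39 and 11.08, while Elavl4 and Tubb3 were too dim to be tested. Of 5 tested leukocyte markers 3 were higher, with 9.30 to 9.51 and 9.71 to 10.74, while Ptprc, the gene of CD45, lay below the filter on dim rows. Of 8 tested smooth muscle markers 4 were higher and 3 lower, and of 11 tested epithelial markers 0 were called (summed levels 12.49 to 15.07 and 13.07 to 15.00). Of 7 tested endothelial markers Tek was higher and Lyve1 and Prox1 were lower (summed levels 9.46 to 10.43 and 10.33 to 11.41), and of 2 mesothelial markers 1 was higher. Of the 2 markers of interstitial cells of Cajal, Ano1 was lower and Kit was not called (limma adjusted p = 0.404), with summed levels of 9.89 to 12.02 in CD90- and 7.59 to 8.69 in CD90+ samples. The array's negative control rows had medians from 6.79 to 6.84 in CD90- and from 6.58 to 6.67 in CD90+ samples, without overlap. Dimmer than these rows in both populations were 4 of 5 measured neuron, 6 of 8 leukocyte and 6 of 8 endothelial markers. The same held for 3 of 4 mesothelial and 1 of 7 glia markers. Calls among such dim markers carry little information. Samples 13 and 14 stood apart from the other 6 by high Xist (16.16 and 16.27, against 5.89 to 9.32) and low Uty (5.49 and 5.56, against 9.65 to 10.06). The part of these markers, of the control rows and of samples 13 and 14 in the results was not tested. Without samples 13 and 14, 15 members were called, with Atp5b losing its call and Ndufa6 and Ndufaf6 gaining one (limma adjusted p = 0.0516, 0.0355 and 0.016).

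The genes of oxidative phosphorylation differed little between the populations. Values are the log2 units of the deposited table, differences are CD90+ minus CD90-, and a gene was called when its limma p, adjusted by Benjamini-Hochberg over all 16919 genes tested, was under 0.05. Of the 88 members bright enough to be tested, 14 (15.9%) were called, 3 with higher and 11 with lower values in CD90+. Over all genes tested 30% were called, 14.2% higher and 15.9% lower. Among subunits of complexes I to V alone, 12 of 76 were called (15.8%). After another quantile normalization the members' split was 4 higher and 7 lower. With consecutive sample numbers (13 with 14, and so on) as a block, 18 members (20.5%) were called, against 34.9% of all genes. The populations' values did not overlap in 20 members (22.7%), against 32.5% of all genes tested.

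The differences were also small in size. The median difference of the 88 members was -0.04, against -0.01 over all genes, with 27 members above 0 and 61 below. The median absolute difference was 0.083, against 0.176 over all genes. A difference of at least 0.5 was found in 5 members (5.68%, against 17.8% of all genes) and of at least 1 in 0 (against 7.45%). For 76 members (86.4%) the 95% interval of the difference lay within 0.5 on either side of 0, against 61% of all genes. Of the 74 tested members that were not called, 69 had such an interval, so for these the arrays bounded the difference, whereas for the other 5 a larger difference was not bounded. The spread between samples of 1 population was likewise small, with a median SD of 0.114 for the members and 0.14 for all genes.

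**Figure D1:**
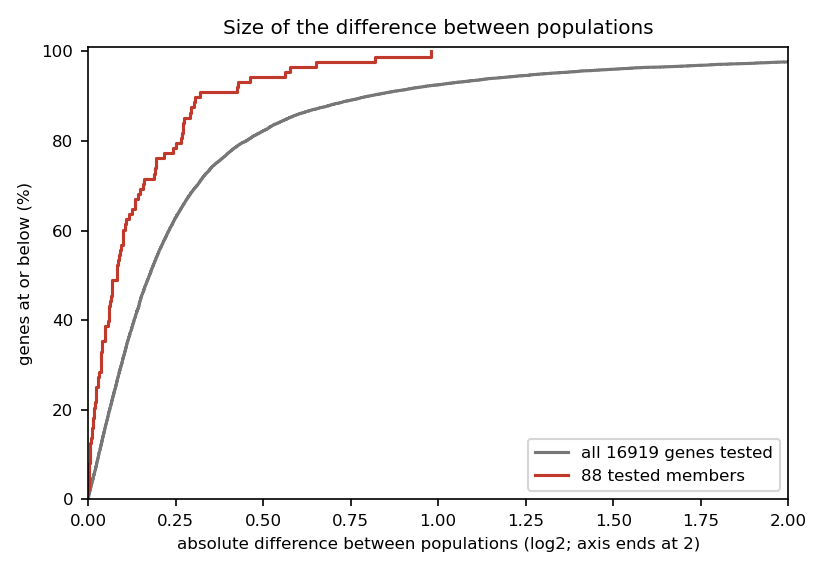
Cumulative share of genes (percent) against the absolute difference between CD90+ and CD90- means (log2, axis ends at 2) for the 88 tested members (red) and all 16919 genes tested (grey). The red curve lies above the grey one and ends before 1, with a median of 0.083 against 0.176.

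The members below are described complex by complex. In these bulk samples fewer cells of a type and less RNA per cell cannot be told apart. The plot of differences by complex shows each tested member with its 95% interval.

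**Figure D2:**
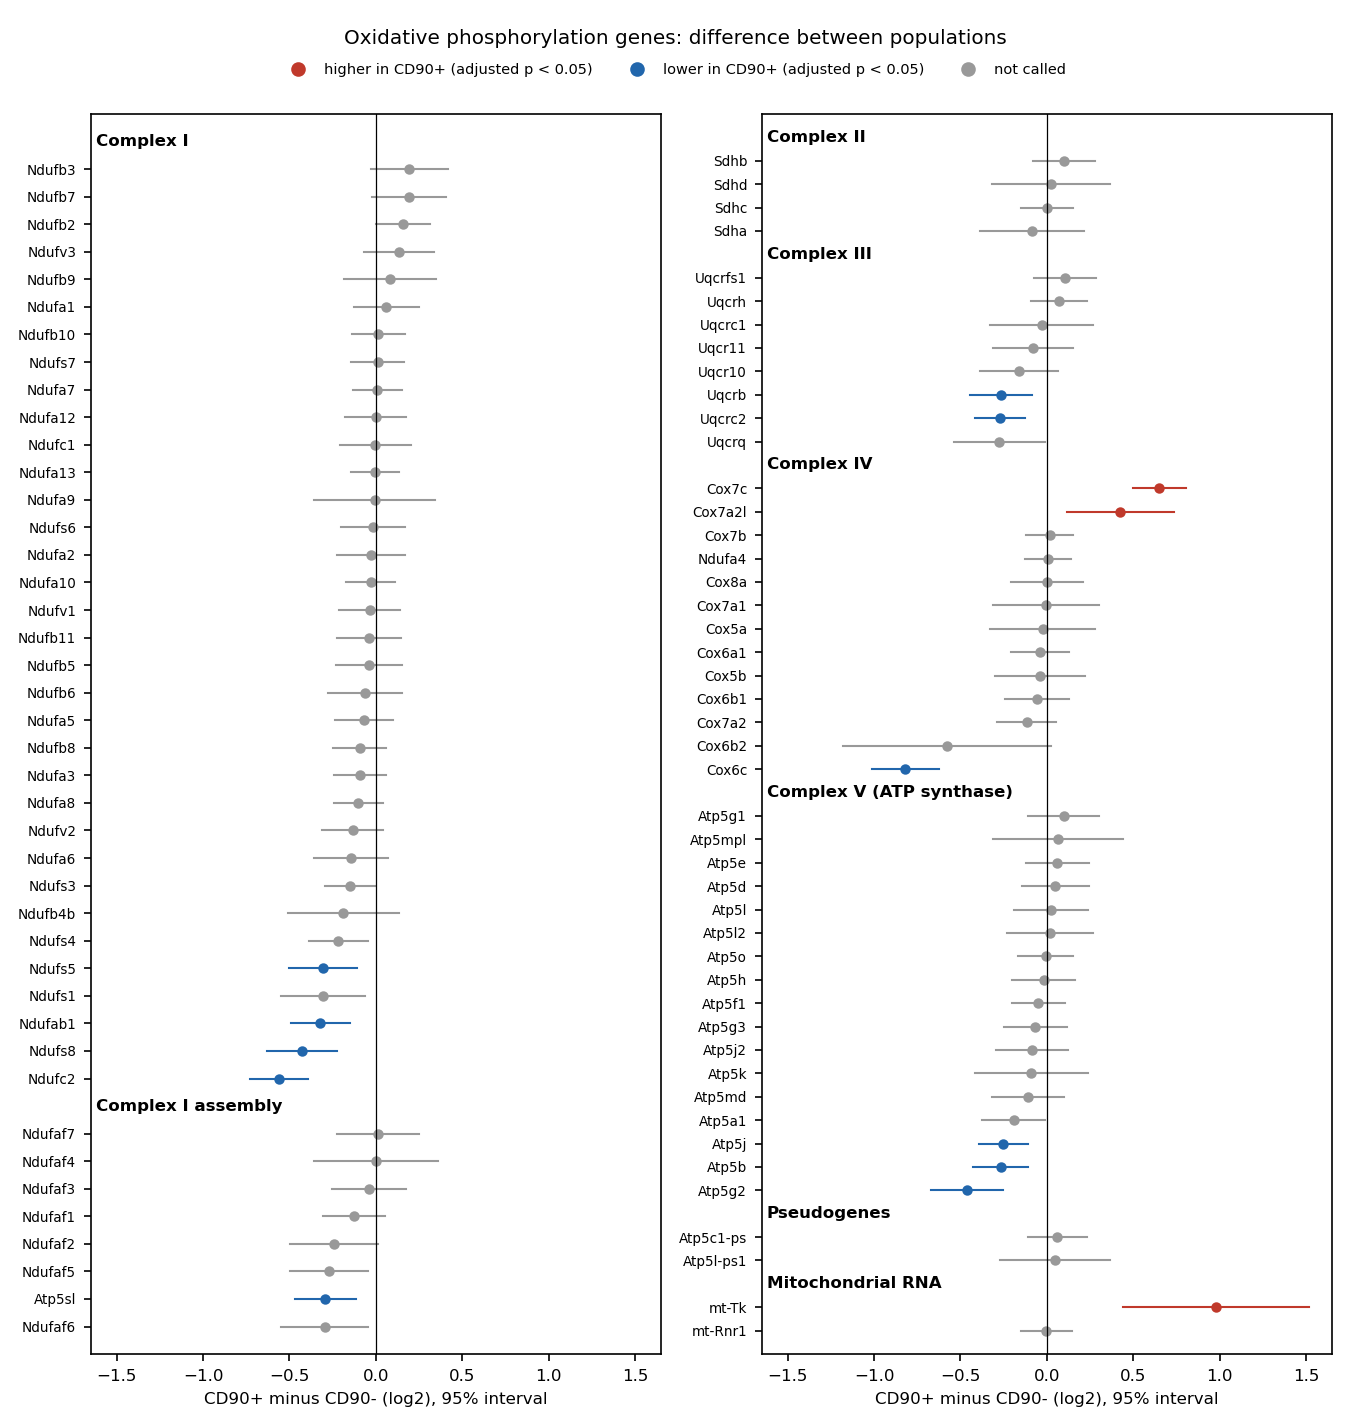
Difference between CD90+ and CD90- means (log2) for the 88 tested members, ordered within complexes, with 95% intervals from limma. Red marks the 3 members called higher, blue the 11 called lower and grey the 74 not called; most grey intervals span 0 closely.

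Complex I, the NADH dehydrogenase, had 4 of its 34 subunits called, all lower in CD90+, and a median difference of -0.04. Ndufc2, an accessory subunit of the membrane arm, was at 12.90, 12.96, 12.88 and 12.69 in the CD90- samples and at 12.30, 12.23, 12.37 and 12.27 in the CD90+ samples. All CD90+ values lay below all CD90- values, and the closest pair were samples 19 and 18. The difference was -0.56 ± 0.0742 (SE, n = 4 and 4; limma adjusted p = 0.000573), a ratio of 1.48 on this scale. Ndufs8, a core subunit that carries iron-sulphur clusters on the way to coenzyme Q, was at 9.33, 9.20, 9.37 and 9.44 in CD90- and between 8.69 (sample 16) and 8.998 (sample 20) in CD90+ samples, with samples 14 and 18 at 8.96 and 8.98. The CD90+ samples were again all lower, sample 16 most of all. Its difference was -0.43 ± 0.0895 (SE; limma adjusted p = 0.00696).

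Ndufab1, the mitochondrial acyl carrier protein, which sits in complex I as an accessory subunit and also serves mitochondrial fatty acid synthesis, fell from 7.44 ± 0.13 to 7.12 ± 0.044 (SD, n = 4 each; difference -0.32, limma adjusted p = 0.012). Its values did not overlap between populations. Ndufs5, an accessory subunit on the intermembrane side, was at 8.28, 8.23, 8.56 and 8.40 in CD90- and between 7.99 (sample 16) and 8.17 (sample 18) in CD90+ samples, so the populations were close without overlapping. Its difference of -0.30 (limma adjusted p = 0.0284) lost its call without any 1 of samples 17, 19, 16 or 20 (adjusted p up to 0.0781) and after another quantile normalization (0.0627).

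The other 30 subunits of complex I were not called. Of the 6 nuclear core subunits measured, Ndufs8 was the one called, and the median of the 6 differences was -0.14, against -0.03 for the 28 accessory subunits, of which 3 were called. Ndufs1, the largest core subunit, which holds iron-sulphur clusters of the NADH-oxidising arm, was at 8.59, 8.34, 8.58 and 8.77 and at 8.32, 8.07, 8.30 and 8.38, with the populations overlapping at samples 15 and 20 (difference -0.31, limma adjusted p = 0.0587). Between consecutive numbers it was lower in CD90+ in 4 of 4 pairs, by 0.27, 0.28, 0.28 and 0.39, and with these as a block it was called (adjusted p = 0.00985). It was also called with array weights (0.018), with the filter at the negative control rows (0.0496) and without sample 15 (0.0238). Ndufs4, an accessory subunit near the NADH-oxidising arm, had a difference of -0.22 that was not called (limma adjusted p = 0.0578) but was with the block (0.046), with the filter at the negative control rows (0.0477) and without sample 20 (0.0216). Ndufs7 was at 8.43 ± 0.094 and 8.44 ± 0.0495, and Ndufv1, the flavin-bearing subunit that takes electrons from NADH, at 10.80 ± 0.082 and 10.76 ± 0.12 (SD, n = 4 each). The 95% interval of the Ndufv1 difference ran from -0.21 to 0.14. Differences above 0 reached 0.19 in Ndufb3 and Ndufb7 and were not called (limma adjusted p = 0.172 and 0.167). Ndufb2 had a difference of 0.16 without overlap that was not called (limma adjusted p = 0.124). It was called higher after another quantile normalization (0.0458). Ndufa1, a small accessory subunit of the membrane arm, was at 13.36 ± 0.14 and 13.42 ± 0.075. Ndufc1, at 6.17 in each population, was dimmer than the negative control rows, as were Ndufaf3, Uqcr10 and the pseudogene Atp5c1-ps, so their differences carry little information.

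The genes named as complex I assembly factors help build the complex and are no part of it. Of 8 tested, 0 were higher and 1 was lower, and 7 of the 8 differences were below 0, with a median of -0.18. The called gene, listed as Atp5sl on the array and named Dmac2 in RefSeq, codes for an assembly factor of the membrane arm despite its older name. It was at 6.98, 6.91, 7.10 and 6.99 and at 6.73, 6.57, 6.85 and 6.67, near the level of the negative control rows. Its difference of -0.29 (limma adjusted p = 0.0204) lost its call without sample 17, 19, 16 or 20, with adjusted p up to 0.0586. Ndufaf5 and Ndufaf6 had differences of -0.27 and -0.29 that were not called (limma adjusted p = 0.0703 and 0.0769). With the block both were called (0.0442 and 0.0193), as both were without sample 13 (0.0459 and 0.0162), and Ndufaf6 also with array weights (0.00825) and without samples 13 and 14 (0.016). Ndufaf4 and Ndufaf7 had differences of 0.00 and 0.01.

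Complex II, the succinate dehydrogenase, also belongs to the tricarboxylic acid cycle and has no subunit coded in mitochondrial DNA. Of its 4 genes 0 were called by limma, and 0 had an unadjusted p under 0.05. The count was 0 under all 18 alternatives too. Sdha, the flavoprotein, was at 11.22, 10.65, 10.89 and 10.92 and at 10.97, 10.57, 10.85 and 10.95, a difference of -0.09 with a 95% interval from -0.39 to 0.22. Sdhb, the iron-sulphur subunit, had a difference of 0.10 (-0.08 to 0.28), and Sdhc, a membrane anchor that binds coenzyme Q, one of 0.00 (-0.15 to 0.15). Sdhd, the other anchor, was at 7.94, 7.41, 8.06 and 7.92 and at 7.71, 7.69, 7.98 and 8.03, a difference of 0.02 (-0.32 to 0.36). The lowest CD90- value of Sdha, Sdhb, Sdhc and Sdhd was each time that of sample 15.

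Complex III, the cytochrome bc1 complex, had 2 of 8 subunits called, both lower, with a median difference of -0.12, and 0 called after another quantile normalization. Uqcrc2, a core protein of the matrix side, was at 11.41, 11.29, 11.33 and 11.28 and at 11.10, 10.95, 11.08 and 11.11. The populations were set apart by more than the range within either. Its difference was -0.27 ± 0.064 (SE; limma adjusted p = 0.0125). After another quantile normalization it was -0.24 and not called (adjusted p = 0.109). Its partner core protein Uqcrc1 was at 11.62, 11.00, 11.41 and 11.38 and at 11.35, 11.16, 11.32 and 11.46, overlapping throughout (difference -0.03, limma adjusted p = 0.889).

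Uqcrb, a small subunit near the coenzyme Q pocket, was at 12.70, 12.83, 12.93 and 12.74 and at 12.53, 12.40, 12.53 and 12.67. Sample 20 came close to sample 13 but the populations did not overlap. The call (difference -0.27, limma adjusted p = 0.0336) was lost without any 1 of samples 15, 17, 19, 14, 16 or 18, with adjusted p up to 0.088, after another quantile normalization (0.0971) and with consecutive sample numbers as a block (0.0517). Uqcrq had a difference of -0.27 that was not called (limma adjusted p = 0.107). Uqcrfs1, the Rieske iron-sulphur protein, was at 7.03 ± 0.12 and 7.13 ± 0.083 (SD, n = 4 each).

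Complex IV, the cytochrome c oxidase, held the members with the highest and the lowest differences of all nuclear subunits. Of its 13 tested genes 2 were higher and 1 lower, with a median difference of -0.02. Cox6c, a small nuclear-coded subunit in the membrane, was at 8.75, 9.06, 8.79 and 8.93 and at 8.11, 7.94, 8.12 and 8.08. The gap between the populations exceeded the range within each. Its difference was -0.82 ± 0.0847 (SE, n = 4 and 4; limma adjusted p = 0.000141), a ratio of 1.77 on this scale, and 9.71% of all genes tested differed by as much or more. Cox7c, another small membrane subunit, was at 9.89, 9.80, 9.78 and 9.74 and at 10.47, 10.32, 10.50 and 10.53. Here the CD90+ samples were all higher, with sample 16 the lowest of them. Its difference was 0.65 ± 0.0681 (SE, n = 4 and 4; limma adjusted p = 0.000148), a ratio of 1.57. Cox6c and Cox7c thus moved in opposite directions. Of the other 11 tested genes of the complex, 9 had differences between -0.12 and 0.02, and Cox7a2l and Cox6b2 had larger ones.

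Cox7a2l codes for a relative of subunit 7a that links complexes III and IV into supercomplexes, and the C57BL/6 lineage is known to carry a shortened form of it. It was at 10.17, 9.84, 10.09 and 9.95 and at 10.82, 10.21, 10.34 and 10.38. Sample 14 lay above the other CD90+ samples, and sample 16 came close to sample 13. The difference was 0.42 ± 0.135 (SE; limma adjusted p = 0.0436). It lost its call without any 1 of samples 15, 17, 19, 14, 18 or 20, with adjusted p up to 0.105, and without a filter on dim rows (0.0624). Cox6b2, known as the testis form of subunit 6b, was at 10.16, 9.22, 10.25 and 9.97 and at 9.68, 8.79, 9.61 and 9.21. Its samples 15 and 16 were the lowest of their populations, the populations overlapped, and the difference of -0.58 was not called (limma adjusted p = 0.137). It was called with consecutive sample numbers as a block (adjusted p = 0.00294), with array weights (0.0307) and without sample 15 (0.0285).

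**Figure D3:**
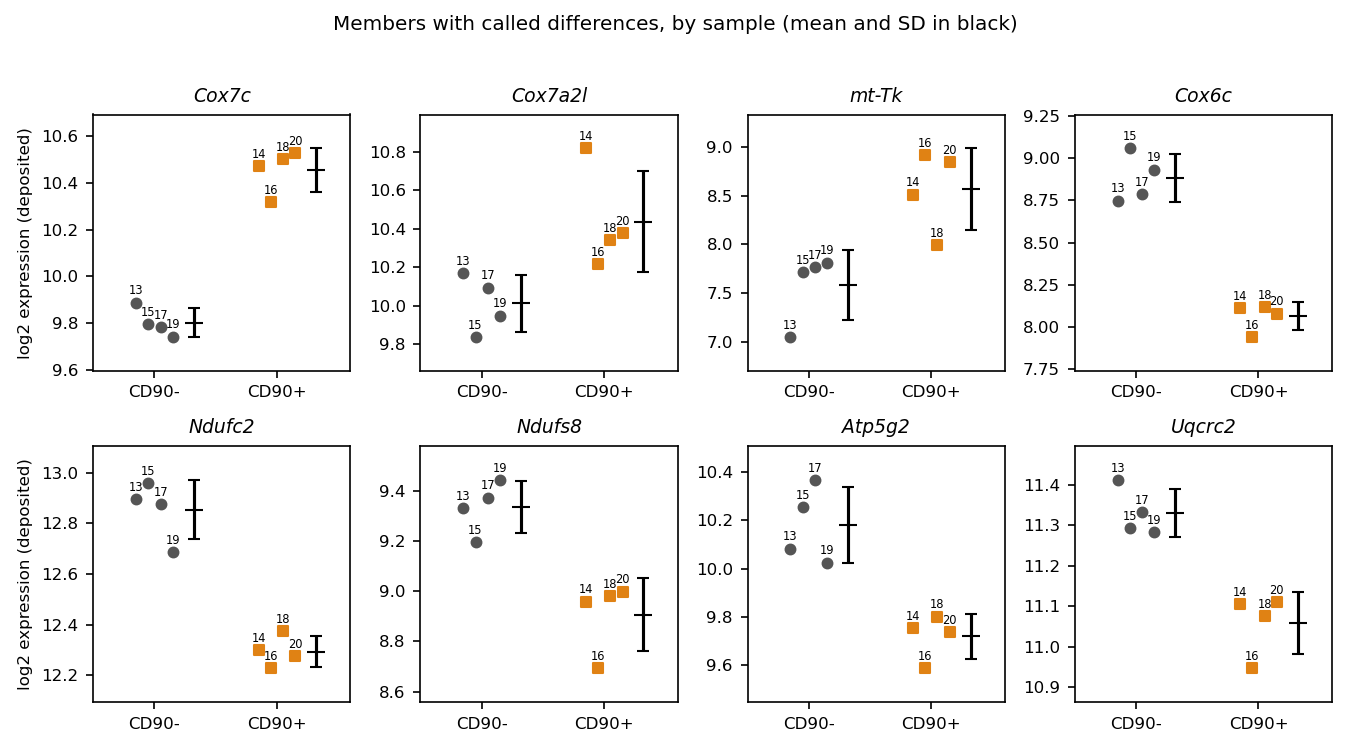
Deposited log2 expression of 8 called members in each sample, numbered by title, for CD90- (circles) and CD90+ (squares), with the mean and SD of 4 samples in black; each panel has its own axis. The populations do not overlap in any panel, and Cox6c and Cox7c differ by -0.82 and 0.65.

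The subunits of complex IV with tissue forms were given whatever their change. Cox6a1 and Cox7a2, the widely expressed forms, had differences of -0.04 (-0.20 to 0.13) and -0.12 (-0.29 to 0.05), Cox6b1 one of -0.06 (-0.24 to 0.13), and Cox8a one of 0.00 (-0.21 to 0.21; all 95% intervals). Cox7a1, the heart and muscle form, was at 7.42, 7.17, 6.95 and 7.22 and at 7.09, 7.03, 7.09 and 7.53, with no difference called (limma adjusted p = 0.982). The muscle forms Cox6a2 and Cox8b and the testis forms Cox7b2 and Cox8c lay below the filter in both populations, at means of 4.97 and 4.94, 3.84 and 3.72, 4.26 and 4.31, and 5.32 and 5.23. Ndufa4, first assigned to complex I and now to complex IV, had a difference of 0.01 (-0.13 to 0.14), and its paralog Ndufa4l2, known from hypoxia, was also below the filter at 3.81 and 3.83. Cox7b was at 12.68 ± 0.059 and 12.69 ± 0.055 (SD, n = 4 each). The paired forms of subunit 4 fall outside the symbols chosen, and neither was called: Cox4i1 was at 10.12 ± 0.13 and 10.26 ± 0.11 (limma adjusted p = 0.283) and Cox4i2 at 6.75 ± 0.22 and 6.42 ± 0.11 (0.056). Cox4i2 was called with array weights (0.024) and without sample 17 (0.0176). Cycs, the cytochrome c gene, had a difference of -0.02 (limma adjusted p = 0.915) on a row whose identifier names chromosome 19, while RefSeq places the gene on chromosome 6.

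ATP synthase had 3 of 17 members called, all lower, with a median difference of -0.05. Atp5g2 is 1 of 3 genes that code for the same mature subunit c of the rotating ring. Its brightest row, whose identifier names chromosome 7, was at 10.08, 10.25, 10.37 and 10.03 and at 9.75, 9.59, 9.80 and 9.74, a difference of -0.46 ± 0.0909 (SE; limma adjusted p = 0.0051). RefSeq places Atp5g2 on chromosome 15, and the row of that chromosome was at 9.66, 9.99, 10.10 and 9.80 and at 9.45, 9.32, 9.52 and 9.46, a difference of -0.45 (limma adjusted p = 0.0105). On both rows all CD90+ samples were lower. The other genes of subunit c were not called: Atp5g1 had a difference of 0.10 (-0.11 to 0.30) and Atp5g3 one of -0.07 (-0.25 to 0.11; 95% intervals).

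Atp5b, the catalytic beta subunit, was at 11.65, 11.64, 11.51 and 11.70 and at 11.37, 11.28, 11.30 and 11.47. The populations did not overlap, with samples 17 and 20 closest. Its difference was -0.27 (limma adjusted p = 0.0195). The call was lost after another quantile normalization (adjusted p = 0.121), without samples 13 and 14 (0.0516) and without sample 19, 16 or 18 alone (up to 0.0612). Atp5a1, the alpha subunit that alternates with beta in the catalytic head, had a difference of -0.19 without overlap that was not called (limma adjusted p = 0.101). Atp5j, coupling factor 6 of the peripheral stalk, fell from 7.12 ± 0.084 to 6.87 ± 0.04 (SD, n = 4 each; difference -0.25, limma adjusted p = 0.0166). Both means lay near the negative control rows, whose medians were also lower in CD90+ (6.58 to 6.67, against 6.79 to 6.84 in CD90-). The part of these rows in its difference was not tested.

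The other members of ATP synthase, apart from Atp5a1, had differences between -0.11 and 0.10 and were not called. Atp5md, a small membrane subunit, was at 14.46 ± 0.135 and 14.36 ± 0.125, and Atp5j2, the f subunit, at 6.88 ± 0.16 and 6.79 ± 0.087 (SD, n = 4 each). Atp5l, the g subunit, had a difference of 0.02 on a row whose identifier names chromosome 5, and of -0.15 (limma adjusted p = 0.284) on the row of its own chromosome 9, while its paralog Atp5l2 had one of 0.02. The pseudogenes Atp5c1-ps and Atp5l-ps1 had differences of 0.06 and 0.05 and were not called. Such processed copies are common for these genes, so a row can hold signal of a gene and its copies together.

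Of the 2 members read from the mitochondrial genome, mt-Tk rose and mt-Rnr1 was not called. The small ribosomal RNA mt-Rnr1 was at 19.60, 19.42, 19.63 and 19.60 and at 19.57, 19.56, 19.55 and 19.54, so its populations overlapped (difference 0.00, 95% interval -0.15 to 0.14, limma adjusted p = 0.975). Values this high lie above 16, the log2 ceiling of a 16-bit scan, and on such a stretched scale a difference is not a ratio of RNA amounts. The lysine transfer RNA mt-Tk was at 7.05, 7.71, 7.77 and 7.81 and at 8.51, 8.91, 7.99 and 8.84. All CD90+ samples were higher, sample 18 by little, and sample 13 lay below the other CD90- samples. Its difference of 0.98 ± 0.236 (SE; limma adjusted p = 0.0139) was the highest of all members.

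The protein-coding genes of mitochondrial DNA carry no prefix in the annotation, so they are no members, but their rows complete the complexes. COX1 of complex IV was at 19.24 ± 0.14 and 19.30 ± 0.05 (SD, n = 4 each; limma adjusted p = 0.608), and COX2 at 10.41 ± 0.081 and 10.44 ± 0.26 (0.898). ND2 was at 10.18 ± 0.26 and 10.23 ± 0.55 (0.919), ND3 at 12.78 ± 0.19 and 12.97 ± 0.46 (0.56), and ND6 at 11.96 ± 0.53 and 12.26 ± 0.13 (0.383), all of complex I. The spread of these left wide 95% intervals, from -0.55 to 0.64 for ND2 and from -0.23 to 0.82 for ND6. With array weights the ND6 difference was 0.56 in place of 0.29 and was called (limma adjusted p = 0.0481). Rows that name several genes were not tested and differed by 0.04 or less: ND1 with mt-Rnr2 was at 18.36 and 18.39, ATP6 with ATP8 and COX3 at 18.13 and 18.17, ND4 with ND4L at 14.64 and 14.61, and CYTB with ND5 at 17.47 and 17.45. COX1 and the rows of several genes, apart from ND4 with ND4L, lie above 16 as mt-Rnr1 does. Their small differences are therefore likewise no ratios of RNA amounts. Of the 30 rows on the mitochondrial chromosome, 19 carry no gene name in the annotation used and were not tested. Their differences ran from -0.07 to 1.37, and 18 of the 19 were above 0.

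Seen sample by sample, the members varied along lines other than the sort. The mean deviation of the 88 members from their own means ran from -0.03 to 0.12 in CD90- and from -0.11 to 0.04 in CD90+ samples, with sample 17 highest and sample 16 lowest, while that of all genes ran from -0.03 to 0.02. For the 6 core subunits of complex I it ran from -0.01 to 0.15 in CD90- and from -0.22 to -0.01 in CD90+ samples, with samples 15 and 20 at nearly the same value. For complex II it was -0.25 in sample 15 and -0.14 in sample 16, below the other samples of either population, which lay between -0.01 and 0.12. In samples 15 and 16 together, 11 members (12.5%, against 6.27% of all genes) lay more than 0.15 below their population's mean and 0 lay as far above (against 4.49%). These were Ndufa9, Ndufs1, Sdha, Sdhd, Uqcrc1, Cox5a, Cox6b2, Cox8a, Cox7a2l, Atp5k and Atp5l-ps1, chosen here for their values. The other consecutive pairs held 0 to 3 such low members. Across all genes the deviations of consecutive samples correlated at 0.442 for 13 and 14, 0.368 for 15 and 16, 0.456 for 17 and 18 and 0.289 for 19 and 20 (genes are not independent replicates). Nnt, the mitochondrial transhydrogenase, which is no member and was chosen for its pattern, was at 9.13 and 9.27 in samples 13 and 14, 8.36 and 8.34 in 15 and 16, 9.26 and 9.19 in 17 and 18, and 8.83 and 8.89 in 19 and 20. Cwc22, also no member and chosen for its pattern, was at 8.20 and 7.86, 9.28 and 9.43, 14.70 and 14.34, and 13.89 and 13.47 in these pairs. Whether the animals differed genetically, beyond the Xist and Uty pattern of samples 13 and 14, was not tested.

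**Figure D4:**
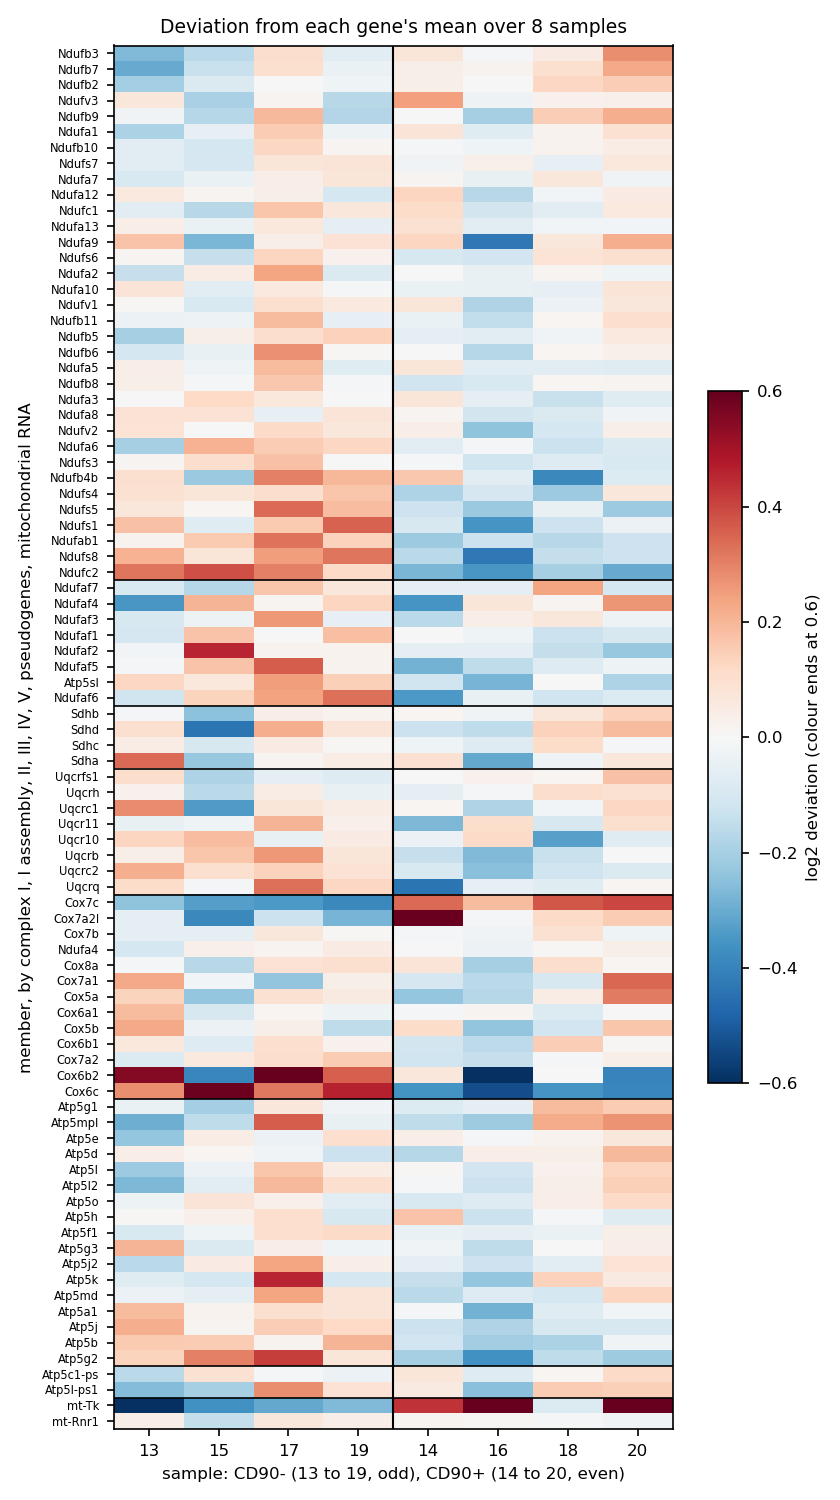
Deviation of each of the 88 tested members from its own mean over the 8 samples (log2, colours end at 0.6 on either side), by complex; CD90- samples are left and CD90+ samples right of the line. Cox7c, Cox7a2l and mt-Tk change colour from blue to red across the line, Cox6c and Ndufc2 from red to blue, and samples 15 and 16 are blue in many rows.

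Genes around the respiratory chain were examined as 12 lists of 127 tested genes that are no members, of which 7 were higher and 21 lower (median difference -0.06). Over all genes tested 14.2% were called higher and 15.9% lower. The share of list genes called lower was thus near that of all genes, and the share called higher was under it. Most assembly genes were not called. Of 7 tested assembly factors of complexes II and III, Sdhaf4 rose by 0.25 (limma adjusted p = 0.017), a call lost after another quantile normalization (0.0572) and without sample 19 (0.0555). Sdhaf4, at 6.00 in CD90- and 6.24 in CD90+, was dimmer than the negative control rows, so its call carries little information. Of 19 of complexes IV and V, Cox11 and Cox17, which carry copper to cytochrome c oxidase, fell by 0.36 and 0.43 (limma adjusted p = 0.017 and 0.0173), Cox11 losing its call without sample 19 (0.0524). Of 16 assembly factors of complex I, 8 of which are members, the called gene was Dmac2. Of 12 genes of coenzyme Q synthesis and function (labelled synthesis in the figure) 2 were higher and 0 lower. Coq8b went from 8.56 ± 0.17 to 9.13 ± 0.16 and Coq10b from 11.18 ± 0.059 to 11.59 ± 0.19 (SD, n = 4 each; limma adjusted p = 0.00433 and 0.0115).

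Regulators moved in both directions. Of 9 tested regulators of mitochondrial biogenesis, 2 were higher and 2 lower. Ppargc1a, the coactivator PGC-1alpha, was at 7.33, 6.73, 6.57 and 6.57 and at 7.54, 7.21, 7.64 and 7.44, overlapping at samples 13 and 16 (difference 0.66, limma adjusted p = 0.0221). It lost its call without sample 15, 17, 19, 18 or 20, with adjusted p up to 0.0643. Nrip1, a corepressor of the same nuclear receptors, rose by 0.30 (limma adjusted p = 0.0118). Nrf1, whose motif is described above, and Gabpb1, a subunit of GABP, fell by 0.20 and 0.23 (limma adjusted p = 0.0479 and 0.0377). Each of these lost its call in 10 of 18 alternatives. Of 14 genes of mitochondrial DNA transcription and upkeep, Polg2, the accessory subunit of the mitochondrial DNA polymerase, was at 10.28, 10.38, 10.69 and 10.66 and at 11.04, 11.76, 11.91 and 11.77 (difference 1.11, limma adjusted p = 0.0025), sample 14 lying below the other CD90+ samples. Tefm, a transcription elongation factor of mitochondria, and Ssbp1, which coats single-stranded mitochondrial DNA, fell by 0.55 and 0.41 (limma adjusted p = 0.00429 and 0.00718).

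Some lists outside the complexes had lower calls alone, as did complexes I, III and V. In these complexes 11.8%, 25% and 17.6% of tested genes were called lower, against 15.9% of all genes. Complex III had 0 after another quantile normalization. In the lists of carriers, cristae and glycolysis 50%, 36.4% and 42.9% were lower, of 6, 11 and 14 genes. Of 6 tested carriers and porins 3 were lower and 0 higher: the adenine nucleotide carrier Slc25a4 was at 12.91, 13.08, 12.96 and 12.84 and at 12.53, 12.45, 12.40 and 12.44 (difference -0.49, limma adjusted p = 0.000797), and the outer membrane porins Vdac1 and Vdac2 fell by 0.43 and 0.23 (0.000616 and 0.0239). Vdac2 lost its call after another quantile normalization (0.0897) and without sample 17, 19, 16 or 18 (up to 0.0686). Of 11 genes of the cristae and the ATP synthase inhibitor 4 were lower and 0 higher. Micos10, a core component of cristae junctions, was at 10.25, 10.24, 10.38 and 10.12 and at 9.34, 9.17, 9.20 and 9.24, far below in every CD90+ sample (difference -1.01, limma adjusted p = 1.75e-05). Atpif1, which inhibits ATP synthase when it runs in reverse, fell by 0.30 (limma adjusted p = 0.00555), and Immt, the mitofilin, by 0.23 (0.0221). Immt lost its call after another quantile normalization (0.0695), without samples 13 and 14 (0.0508) and without sample 15, 17 or 20 (up to 0.062). Cristae calls numbered 2 after another quantile normalization, without samples 13 and 14, and without sample 17 or 20.

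Glycolysis, the other source of ATP, had 6 of 14 tested genes lower and 0 higher, with a median difference of -0.16. The count was 4 after another quantile normalization and without sample 13, 16 or 18. Pgk1, 1 of the 6, was read from a row whose identifier names chromosome 12, while RefSeq places the gene on chromosome X. Pfkp, a phosphofructokinase, went from 10.97 ± 0.13 to 10.12 ± 0.072 and Pkm, the pyruvate kinase of most tissues, from 10.96 ± 0.29 to 9.88 ± 0.21 (SD, n = 4 each; limma adjusted p = 7.94e-05 and 0.00107). Pgam1 fell by 0.39 (limma adjusted p = 0.00768). Of 18 genes of the tricarboxylic acid cycle and pyruvate entry 1 was higher and 1 lower, Pcx by 0.33 and Dlat by -0.27 (limma adjusted p = 0.0149 and 0.0187). Pcx, at 5.47 in CD90- and 5.81 in CD90+, was dimmer than the negative control rows, so its call carries little information. Pcx lost its call after another quantile normalization (0.0565) and Dlat without sample 19 or 20 (0.0503 and 0.0583). Of 6 mitochondrial antioxidant enzymes Gpx4 fell by 0.21 (limma adjusted p = 0.0258). Its call was lost after another quantile normalization (0.0967), without samples 13 and 14 (0.0654) and without sample 17, 19, 14, 16 or 18 (up to 0.0723). Differences between these lists and the complexes were not tested.

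**Figure D5:**
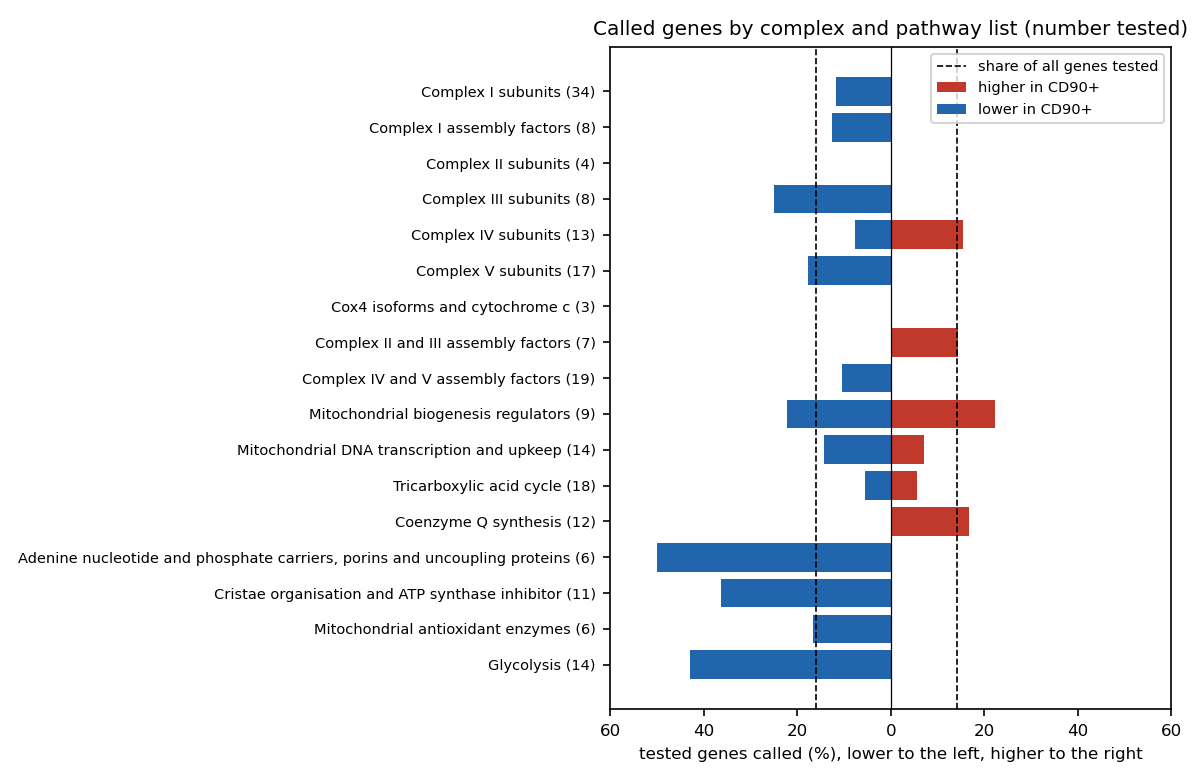
Share of tested genes called higher (red, right) and lower (blue, left) in CD90+ for the complexes and the pathway lists, with the number tested in parentheses. Dashed lines mark the shares over all genes tested, 14.2% higher and 15.9% lower; on the left, complexes III and V and the lists of biogenesis, carriers, cristae, antioxidant enzymes and glycolysis pass the line, and on the right complex IV, biogenesis and coenzyme Q synthesis do, with assembly factors of complexes II and III level with it.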

How the data were processed

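RNA of 8 sorted samples was measured on 1-colour arrays. Per the labels' protocols, 2 ng of RNA was amplified and labelled with a pico kit for in vitro transcription. The authors deposited log2 values, 1 per transcript cluster and array, made with Affymetrix Expression Console 1.1 and RMA per the submitters' processing notes. RMA is a method that corrects background, quantile-normalizes and summarises over probes. Neither its settings nor a genome build are given in the sources used here. The table has 72688 rows, 6732 of them controls. Of 65956 clusters, 30604 named 1 gene, 2146 several and 33206 none (unnamed here). Cluster identifiers name the chromosome that RefSeq gives the gene in 99.68%.

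Members were taken by symbol pattern. They came from 97 rows, and the row with the highest mean was kept where a gene had several (Atp5g2, Atp5l and Atp5d). A further 5 rows naming a member with another gene were left out. In RefSeq 91 of the 93 were found. Rows had to reach 5.36, the median of all clusters, in at least 4 of 8 samples. The 16919 genes left were fitted with limma 3.58.1 (lmFit, eBayes) in R 4.3.3, two-sided, threshold 0.05, with 95% intervals. On simulated data the fit recovered 4% of differences of 0.25, 60% of 0.5, 92% of 1 and 94% of 2, and 4 of 129 calls were false. With 129 calls there against 5077 here, these shares need not hold for the arrays. Summed marker levels are the log2 of summed linear values. Named genes were called members with the smallest p (up to 6 per complex and direction), paralogs, complex II, mitochondrial genes, and up to 3 called genes per list and direction. Values of Ndufa6, Ndufs1, Ndufs4, Ndufs7, Ndufv1, Ndufb2, Ndufb3, Ndufb7, Uqcrc1, Uqcrq, Uqcrfs1, Atp5a1 and Nnt were added after they were seen. The same holds for the marker genes, the uncalled assembly factors and the alternative keeping rows on a gene's own chromosome. Cwc22 was likewise added after its values were seen. Members and lists were chosen with earlier results of these data known. Alternatives changed the filter, normalization, variance model, array weights, row per gene, block and samples. The number of arrays limits the precision. Tables and figures used Python 3.11.15, pandas 2.3.3 and matplotlib 3.10.9.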

Additional observations from a re-analysis of the deposited data

Results flagged for a closer look

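In 6 of 80 groups of 4 samples tested among the members, 1 sample lay far from the other 3 for the spread among them. Chance flags about 1 in 20 such groups. Ndufs8 was at 8.69 in sample 16, below 8.96 to 8.998 in the other CD90+ samples. Ndufaf2 was at 8.69 in sample 15, above 8.21 to 8.25 in the other CD90- samples. Cox7a1 was at 7.53 in sample 20, above 7.03 to 7.09 in the other CD90+ samples. Cox7b was at 12.77 in sample 18, against 12.66 to 12.67. The ribosomal RNA mt-Rnr1 was at 19.42 in sample 15, below 19.60 to 19.63 in the other CD90- samples. The transfer RNA mt-Tk was at 7.05 in sample 13, below 7.71 to 7.81.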

How the results depend on the processing

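Of the 14 called members, 8 were called in all 18 alternatives: Ndufab1, Ndufc2, Ndufs8, Cox6c, Cox7c, Atp5g2, Atp5j and mt-Tk. Among these, Atp5j lay near the negative control rows. Of the 74 not called, 8 were called in at least 1. The sign of a called difference changed in 0 of them. The count of members called lower, 11, was 7 after another quantile normalization, which also took the pathway genes called lower from 21 to 13, and the cause was not tested. Array weights took the pathway genes called higher from 7 to 12. Leaving out 1 sample at a time gave 7 (without sample 19 or 16) to 14 members called lower, 2 to 3 called higher, and a median difference of -0.07 to 0.00. For pathway genes it gave 14 to 22 lower and 5 to 10 higher, and for Thy1 a difference of 2.03 to 2.39. Over all genes it gave 3940 (without sample 19) to 5161 (without sample 13) called, against 5077. The labels give the populations no shared number and tie no sample to a mouse, so pairing is not given by the design. The consecutive title numbers, whose samples deviate together in 4 of 4 pairs, were a block in an alternative, which called 18 members (20.5%) and 5913 genes (34.9%). Among the CD90+ samples, however, sample 19 correlated most with sample 18 and not with sample 20. With 4 samples a population, an uncalled member cannot be read as equal beyond its interval. Members below the negative control rows bound no level.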
